A study of Mus musculus with 15 samples.

Results

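Bone marrow plasma cells were compared with the spleen plasma cells that carried B220 and took up a glucose analogue, over 6 of the 15 libraries of a mouse RNA-seq series. The 2 groups were named BMPC and spleen B220+2NBDG+ and held 3 biological replicates each. The donors were C57Bl6/N males, 8 to 12 weeks of age, neither immunised nor treated. They were sorted for high CD138 and absence of Ly6g and CD11c, and about 30000 cells per subset were sorted in a double round. Spleen B220+2NBDG+ cells carried B220, a form of CD45 typical of B cells, and took up 2NBDG, a fluorescent analogue of glucose. BMPC also took up 2NBDG but lacked B220, so tissue and B220 differed at once in this comparison and cannot be told apart in it. A further spleen group, B220-2NBDG+ (3 libraries), shares the tissue with one group and the B220 status with the other, and its values are set beside the results. Libraries were assigned to the groups by these labels alone.

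Plasma cells are the antibody-secreting end stage of the B lineage. They are formed in spleen and lymph nodes, where dividing plasmablasts still carry B220 and MHC class II, and a share of them settle in the bone marrow, where they stop dividing and can live long on signals from surrounding stromal and myeloid cells. Immunoglobulin mRNA fills most of their transcriptome. For that reason expression of other genes was measured after the 262 immunoglobulin locus genes were set aside and the remaining transcripts rescaled to 1000000 TPM, a transcript's length-corrected share of its library.

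The 6 libraries held 17891489 to 24826740 estimated reads, of which 4399556 to 7434990 lay outside the immunoglobulin genes, and 9411 to 10305 genes reached 1 TPM. The reads were back-calculated from TPM and are approximate. Pearson correlations of log2(TPM + 1) across genes were 0.967 to 0.974 between BMPC libraries, 0.965 to 0.972 between spleen B220+2NBDG+ libraries and 0.941 to 0.952 between the groups. Nothing in the labels says that same-numbered libraries of the 2 groups were linked. Libraries of both groups carried the plasma cell genes that define the sort. Sdc1, which encodes CD138, stood at 135, 139 and 94.2 TPM in spleen B220+2NBDG+ libraries 1, 2 and 3 and at 59.5, 96.4 and 125 TPM in BMPC libraries 1, 2 and 3 (log2 difference -0.43 ± 0.41 SE, adjusted p = 0.468). Per-library values below follow this order, and every ± after a log2 difference is its standard error. Itgax, which encodes CD11c, was low in both groups (0.955, 1.17 and 1.84 TPM in spleen, 0.446, 0.401 and 0.664 TPM in BMPC). The third spleen library differed from the other two in its red cell transcripts, with summed erythroid markers of 6804 TPM against 443 and 352 TPM.

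Of 11246 genes tested with limma on log2(TPM + 1), 1264 (11.2%) passed a Benjamini-Hochberg adjusted p of 0.05, 215 higher in BMPC (1.91%) and 1049 lower (9.33%). The median log2 difference of all tested genes was -0.32, and 83.0% of the calls were lower in BMPC. On a second scale, in which each library was divided by the median ratio of its genes to their geometric mean over all 15 libraries (median-of-ratios), that median was -0.01, 34.0% of the calls were lower, and 571 of 11204 genes passed (5.10%), 377 higher (3.36%) and 194 lower (1.73%). On both scales 407 genes passed (3.62%), of which 213 were higher in BMPC (1.89%) and 194 lower (1.73%). The libraries of the 2 groups did not overlap for 4319 genes (38.4%). The count on the first scale was 544, 597, 601, 568 and 832 without BMPC 1, BMPC 2, spleen 1, spleen 2 and spleen 3, and 1232 without BMPC 3. The words rose and fell are used below only for genes called on both scales, unless the scale is named. These genes kept their call in each of 6 fits that left out 1 library, except where libraries are named. Where a list's count is followed by 2 counts with libraries named, these are the lowest and highest over the 6 fits. Counts of lower list members stand beside 9.33% of all tested genes on the first scale and 1.73% on both. As RNA was measured in bulk, fewer cells of a type and less RNA per cell cannot be told apart.

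**Figure D1:**
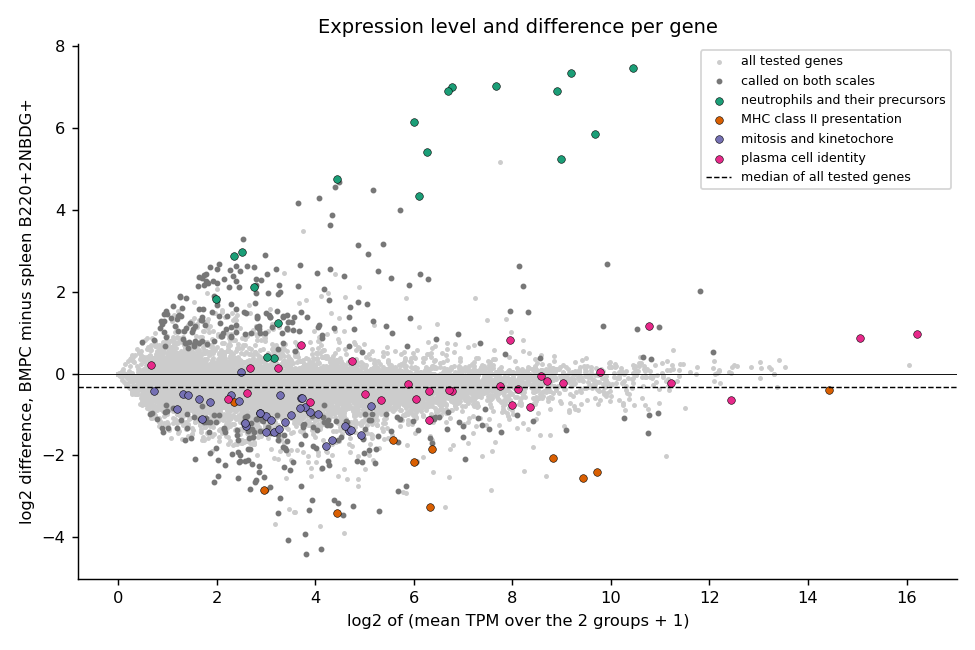
Each point is 1 of 11246 tested genes, with the log2 of its mean TPM over the 2 groups on the x axis and the log2 difference of BMPC minus spleen B220+2NBDG+ on the y axis. Neutrophil markers lie at the top, MHC class II genes at the bottom, and most genes sit around the dashed line at the median of -0.32.

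The highest differences were those of neutrophil granule genes. The ranking took genes called on the first scale, with a mean of 10 TPM in either group and no overlap between the groups. Of its 12 largest gains, 11 belong to the marker list for neutrophils and their precursors, cells that mature in bone marrow. Ltf, which encodes the granule protein lactoferrin, stood at 0.400, 39.7 and 60.3 TPM in spleen and 2134, 2517 and 3599.9 TPM in BMPC (log2 difference 7.47 ± 1.14, adjusted p = 0.00156). Mpo, the myeloperoxidase of primary granules, stood at 0.327, 0.806 and 0.272 TPM in spleen and 85.6, 163 and 368 TPM in BMPC, and Elane, neutrophil elastase, at 0.346, 0.584 and 0.574 TPM in spleen and 101, 194 and 358 TPM in BMPC. The lowest BMPC library was above the highest spleen library for each of these 3 genes, which the ranking required. Chil3, Camp, Ngp, Fcnb, S100a8, Lcn2, S100a9 and Prtn3 also rose, by log2 differences from 4.77 (Prtn3) to 7.36 (Chil3). With 1 library left out, the call of Chil3 was lost without spleen 1 and that of S100a9 kept only without BMPC 3 or spleen 3 (adjusted p 0.0161 to 0.0856). Of the 20 members of the list, 19 were tested, and 2 of these (Ctsg and Mmp8) passed the filter on low values only through BMPC libraries. Of the remaining 17, 14 rose, beside 1.89% of all tested genes. These include Retnlg and Mmp9, whose calls were kept only without spleen 3 (adjusted p for Retnlg 0.0290 to 0.128). Over the 19, between 12 without BMPC 1, BMPC 2 or spleen 1 and 16 without spleen 3 were called higher when 1 library was left out. These counts include Mmp8 and Ctsg, and Ctsg was tested in only 3 of the 6 fits. They therefore give no range for the 17. The 3 not called were Csf3r, Cxcr2 and Itgam, which encode receptors and an integrin of mature neutrophils, with differences of 1.25, 0.38 and 0.40. Csf3r, Cxcr2, Itgam, Retnlg, Mmp9, Ctsg and Mmp8 were named after their values were seen. Against spleen B220-2NBDG+, Ltf differed by 7.22 (adjusted p = 0.00449), in a comparison where 1.92% of all genes were called and 1.03% were called higher in BMPC.

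The list's summed level was 25.8, 137 and 465 TPM in the spleen libraries and 6901, 7729 and 11474 TPM in BMPC. No marker of the 20 was at 0 in all 6 libraries. The 3 spleen B220-2NBDG+ libraries summed to 79.2, 82.9 and 391 TPM. Ly6g itself, whose protein was used to exclude cells, stood at 1.46, 1.34 and 1.26 TPM in spleen and 15.04, 4.61 and 10.6 TPM in BMPC (log2 difference 2.11 ± 0.39, adjusted p = 0.00536). Every BMPC library was above every spleen library. The part of these transcripts in the other results was not tested.

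The remaining gene of those 12 was Cyp2b10, a cytochrome P450 known from the liver. It stood at 0.242, 0.322 and 0.670 TPM in spleen B220+2NBDG+, 2.09, 1.02 and 2.03 TPM in spleen B220-2NBDG+ and 14.1, 67.4 and 44.4 TPM in BMPC (log2 difference 4.69 ± 0.40, adjusted p = 3.08e-05). The 3 groups did not overlap, which the ranking required only of BMPC and spleen B220+2NBDG+. BMPC also exceeded spleen B220-2NBDG+ (3.76, adjusted p = 2.72e-04).

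Products of early B cell development, chosen after their values were seen, were higher in BMPC. Which cells in the sort carried these transcripts was not tested. Igll1, a component of the surrogate light chain of the pre-B cell receptor, stood at 0.561, 0 and 0.698 TPM in spleen and 36.7, 46.9 and 9.94 TPM in BMPC (log2 difference 4.29 ± 0.54, adjusted p = 4.25e-04). Vpreb1, another surrogate light chain component, stood at 0.377, 1.24 and 0.204 TPM in spleen and 6.52, 6.01 and 2.66 TPM in BMPC, and Vpreb2 at 0.329, 0 and 0 TPM in spleen and 11.5, 1.98 and 2.93 TPM in BMPC. Both were called on both scales, with the call of Vpreb2 lost without BMPC 1 or spleen 2. These 2 genes are close copies of each other, so the division of reads between them is uncertain. Dntt, the terminal transferase that adds bases at antigen receptor junctions, was listed at 0 in all 3 spleen B220+2NBDG+ libraries and at 5.98, 6.57 and 3.33 TPM in BMPC and passed the filter on low values only through those 3 libraries, so no test is given. Vpreb3 differed in that it was also expressed in spleen, at 133, 119 and 72.1 TPM against 656, 437 and 356 TPM in BMPC (log2 difference 2.15 ± 0.38).

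Among plasma cell identity genes, several secreted products rose while the transcription factors that set the fate were not called. Jchain, which links IgM and IgA into polymers, stood at 53819, 45849 and 53790.3 TPM in spleen and 124923, 86131 and 94448 TPM in BMPC, so that BMPC held 1.99 times the mean level of spleen (log2 difference 0.98 ± 0.15, adjusted p = 0.00178). Slpi, a secreted inhibitor of leukocyte proteases, stood at 25358, 21422 and 24834 TPM in spleen and 47569, 34796 and 49857 TPM in BMPC (0.87 ± 0.16, adjusted p = 0.00580). Jchain and Slpi had the largest gains in absolute TPM of all genes, 50681 and 20203 TPM between group means. Prg2, the eosinophil major basic protein also made by plasma cells, stood at 1018, 1163 and 1035 TPM in spleen and 2512, 2017 and 2784 TPM in BMPC (1.17 ± 0.12, adjusted p = 1.12e-04). No BMPC library overlapped a spleen library for these 3 genes. The summed markers of mast cells, basophils and eosinophils, a list without Prg2, were 32.6, 73.3 and 114 TPM in spleen and 66.6, 67.2 and 59.4 TPM in BMPC. Of its 5 tested members, 3 had a log2 difference above 0 and 2 below. Mcpt8, a member left out by the filter, stood at 0, 0 and 0 TPM in spleen and 6.39, 0.813 and 1.47 TPM in BMPC. The part of such cells in the Prg2 values was not tested.

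Tnfrsf17 encodes BCMA, the receptor through which bone marrow plasma cells receive survival signals. It stood at 164, 186 and 178 TPM in spleen B220+2NBDG+ and 379, 283 and 279.5 TPM in BMPC (0.82 ± 0.14, adjusted p = 0.00357). Spleen B220-2NBDG+ libraries held 343, 335 and 328 TPM, within the range of BMPC: the step between the 2 spleen groups was 0.93 (adjusted p = 0.00441) and that from spleen B220-2NBDG+ to BMPC -0.11 (adjusted p = 0.726). Over all genes, 0.0978% were called higher in spleen B220-2NBDG+ than in spleen B220+2NBDG+, and in the plasma cell list 2 of 30 were. Cd93, a surface receptor of plasma cells chosen after its values were seen, was higher on both scales (0.71 ± 0.20), with the call kept only without BMPC 1 (adjusted p 0.0417 to 0.0938).

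Prdm1, Irf4 and Xbp1 encode the transcription factors that install the plasma cell program. Prdm1 stood at 54.8, 30.8 and 56.9 TPM in spleen and 16.2, 37.9 and 38.3 TPM in BMPC (-0.65 ± 0.32, adjusted p = 0.177). Irf4 differed by -0.31 ± 0.29 (adjusted p = 0.462) and Xbp1 by -0.18 ± 0.22 (adjusted p = 0.575), and both were on the other side of 0 on the median-of-ratios scale (0.08 and 0.21). The BMPC libraries overlapped the spleen libraries for all 3 genes. Of the 30 tested members of the list, 5 rose, and 3 were lower on the first scale (Cd9, Mzb1 and Fkbp11; between 1 without BMPC 2 and 4 without BMPC 3). Only Cd9, which encodes a tetraspanin, was also called on the second (104, 94.1 and 127 TPM in spleen, 40.4, 43.1 and 63.7 TPM in BMPC, -1.14 ± 0.18). The list's median was -0.28, beside -0.32 for all genes.

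**Figure D2:**
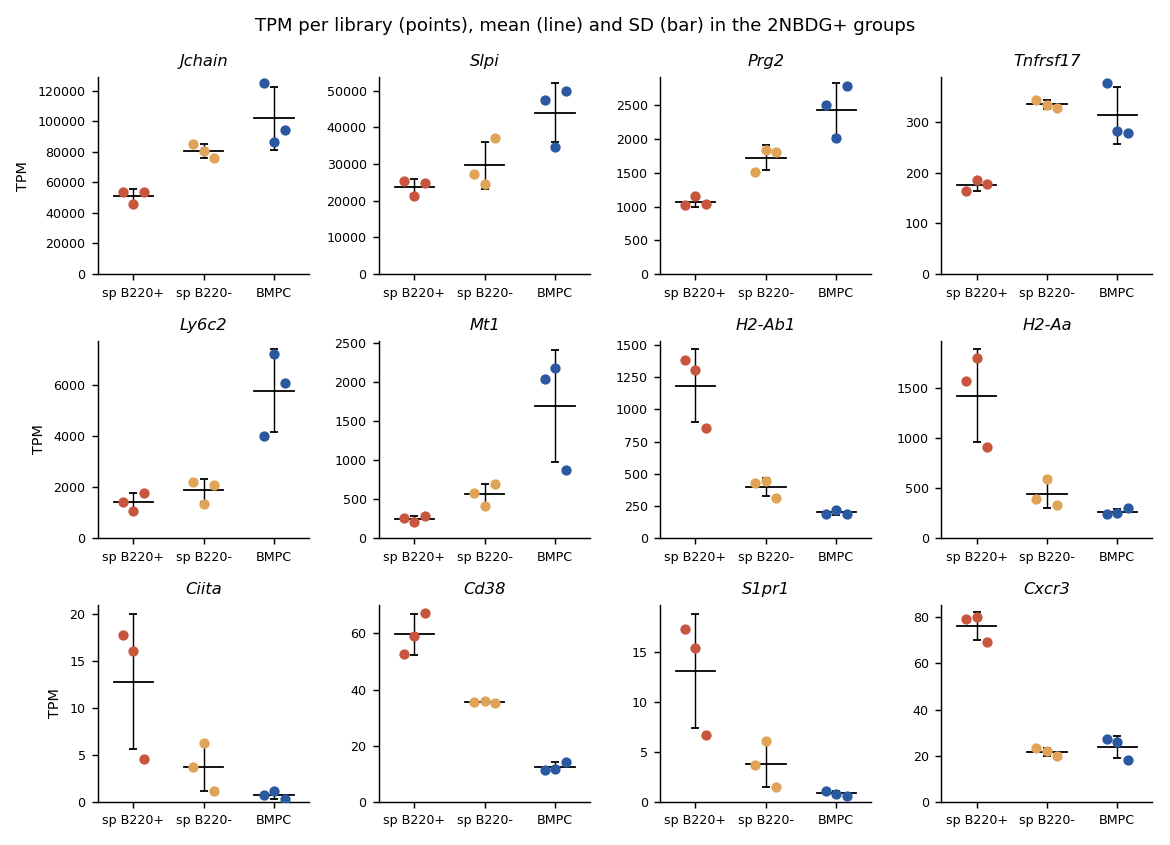
TPM of 12 genes in each library of the 3 groups that took up 2NBDG (sp, spleen), on y axes that start at 0. Points are libraries, lines are means and bars are SD over 3 libraries. Jchain, Slpi, Prg2, Ly6c2 and Mt1 have their highest mean in BMPC, and H2-Ab1, H2-Aa, Ciita, Cd38 and S1pr1 are lowest there, while Tnfrsf17 and Cxcr3 overlap between BMPC and spleen B220-2NBDG+.

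MHC class II genes fell together. Class II molecules present peptides to helper T cells, and B cells lose them as they become plasma cells. Of 11 list members, all tested, 10 were lower on the first scale (9.33% of all genes) and 9 on both (1.73%), and the list's median log2 difference was -2.15 (-1.77 on the median-of-ratios scale), the lowest of the 26 lists on gene function. H2-Ab1, the beta chain of the class II molecule I-A, stood at 1387, 1304 and 858 TPM in spleen and 187, 217 and 189 TPM in BMPC, with means 5.98 times apart (log2 difference -2.55 ± 0.20, adjusted p = 1.76e-05). H2-Aa, its alpha chain, stood at 1566, 1799.9 and 908 TPM in spleen and 234, 251 and 295 TPM in BMPC (-2.40 ± 0.30, adjusted p = 3.76e-04), and H2-Eb1 at 858, 835 and 508 TPM in spleen and 169, 183 and 156 TPM in BMPC. The lowest spleen library lay above the highest BMPC library for each.

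The peptide-loading genes went the same way. H2-DMb2 and H2-DMa, chains of the H2-DM exchange factor, fell with log2 differences of -3.27 and -1.84, and H2-DMb1, an alternative beta chain, with -1.61. H2-Oa and H2-Ob, the chains of its inhibitor H2-DO, fell as well (-3.42 and -2.15). Reads of H2-DMb1 and H2-DMb2, which are near copies, may be divided between them. Ciita, the coactivator on which class II transcription depends, stood at 17.8, 16.1 and 4.57 TPM in spleen and 0.712, 1.19 and 0.311 TPM in BMPC (-2.83 ± 0.62, adjusted p = 0.0127). That call was lost without spleen 1 or spleen 2 (adjusted p = 0.0524 and 0.0542). Cd74, the invariant chain, was the member not called, with 29399.7, 25214 and 21166 TPM in spleen and 16378, 20508 and 20265 TPM in BMPC (-0.40 ± 0.18, adjusted p = 0.148). H2-Eb2 was called on the first scale alone (-0.68 ± 0.17), a call kept only without BMPC 1. Class II genes other than Ciita, H2-Ab1, H2-DMb2 and H2-Oa were chosen for description after their values were seen.

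For H2-Ab1 the spleen B220-2NBDG+ libraries lay between the other groups, at 429.8, 443 and 314 TPM. They differed from spleen B220+2NBDG+ by -1.56 on the log2 scale (adjusted p = 0.00210), and BMPC differed from them by -0.98 (adjusted p = 0.0275). In those 2 comparisons, which share libraries with the main one, 4 and 1 of the 11 members were called, beside 140 (1.24%) and 100 (0.889%) of all genes in the same direction. Macrophages and dendritic cells carry class II too, and their summed markers overlapped between the groups (909 to 4144 TPM in spleen B220+2NBDG+, 897 to 1407 TPM in BMPC). Their part in the class II values was not tested.

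The proximal promoters of 3 class II genes are printed because these members fell together and hold short elements known from class II promoters. They are 120 bases before the start of H2-Aa (GRCm38, chr17:34287824-34287943, minus strand), H2-Eb1 (chr17:34305747-34305866, plus strand) and H2-Ob (chr17:34238783-34238902, plus strand), from RefSeq, 5′ to 3′ on the gene's strand. Capitals mark CCAAT, the core of the Y box, or its reverse complement, and AGCAAC, a core of the X box, on either strand. CCAAT is marked in all 3, and AGCAAC in H2-Eb1 and H2-Ob but not in H2-Aa.
H2-Aa: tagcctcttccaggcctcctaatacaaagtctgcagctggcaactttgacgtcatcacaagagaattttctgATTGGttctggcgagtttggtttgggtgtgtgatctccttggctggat
H2-Eb1: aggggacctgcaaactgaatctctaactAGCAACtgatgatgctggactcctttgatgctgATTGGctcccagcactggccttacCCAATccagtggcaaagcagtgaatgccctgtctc
H2-Ob: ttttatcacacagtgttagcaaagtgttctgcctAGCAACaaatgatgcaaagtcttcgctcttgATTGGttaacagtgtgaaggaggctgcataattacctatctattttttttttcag
Over 250 bases before the start, CCAAT occurred on either strand in all 7 class II genes with an entry in the table, compared with 33.8% of 32851 promoters. AGCAAC occurred in 4 of the 7 (H2-Eb1, H2-Eb2, H2-Oa and H2-Ob), compared with 12.2%. Such a match describes the letters of the window and no binding was measured.

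Values of 3 MHC class I genes, chosen after they were seen, differed in their calls. H2-K1 stood at 2971, 2167 and 2345 TPM in spleen and 642, 949 and 1232 TPM in BMPC (-1.44 ± 0.21, adjusted p = 0.00101) and was called on both scales. H2-D1 stood at 4006, 3475 and 2727 TPM in spleen and 278, 1362 and 1513 TPM in BMPC (-2.01 ± 0.50), called on the first scale (adjusted p = 0.0251, lost without spleen 1 or spleen 2) and not on the second (adjusted p = 0.0567). Class I genes are near copies of each other, so their reads may be shared. B2m, the common light chain of class I, was not called (-0.33 ± 0.19, adjusted p = 0.232). Tap1, which carries peptides into the ER for class I, fell (80.3, 62.1 and 53.4 TPM in spleen, 15.2, 26.3 and 33.9 TPM in BMPC, -1.39 ± 0.31), with the call lost without BMPC 1 or spleen 1.

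B cell identity genes were lower in part. Of 34 tested, 14 were called lower on the first scale (9.33% of all genes) and 9 on both (1.73%). The first-scale count was between 7 without spleen 1 or spleen 2 and 12 without spleen 3. None was higher, and the median log2 difference was -0.75 (-0.46 on the median-of-ratios scale). Fcer2a (CD23) stood at 41.7, 74.2 and 13.04 TPM in spleen and 2.82, 2.84 and 1.29 TPM in BMPC, Fcmr, the IgM Fc receptor, at 45.1, 41.7 and 26.8 TPM in spleen and 0.395, 5.48 and 7.30 TPM in BMPC, and Cd22, an inhibitory coreceptor, at 120.1, 90.4 and 53.7 TPM in spleen and 9.07, 20.4 and 6.22 TPM in BMPC. Each fell (log2 differences -3.46, -3.17 and -2.87), with spleen libraries above BMPC libraries throughout. That separation was a condition of the ranking from which these genes were taken. With 1 library left out, the call of Fcmr held throughout, that of Fcer2a was kept only without spleen 3 (adjusted p 0.0179 to 0.0854) and that of Cd22 was kept only without BMPC 2 or spleen 3 (adjusted p 0.0250 to 0.0690). Cxcr5, the receptor that guides B cells into follicles, fell by 2.78, a call lost without spleen 2. Signalling molecules of the B cell receptor also fell: the adaptor Bank1 (-2.16) and the kinases Lyn (-1.32), Blk (-1.25) and Syk (-0.997). These 4 were chosen after their values were seen.

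Ptprc, the gene of CD45 and so of B220, stood at 173, 190.3 and 190.2 TPM in spleen B220+2NBDG+, 142, 130.5 and 131 TPM in spleen B220-2NBDG+ and 59.7, 93.5 and 116 TPM in BMPC. It was lower in BMPC on the first scale (-1.08 ± 0.30, adjusted p = 0.0383), a call kept only without BMPC 3, and not called on the second (adjusted p = 0.191). Gene sums do not separate the B220 form from other forms of CD45.

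The lower end of the ranking held surface and secreted proteins of several cell types. Adamdec1, a protease known from macrophages, stood at 10.3, 24.2 and 43.7 TPM in spleen and 0.0486, 0 and 0.237 TPM in BMPC (-4.42 ± 0.71, adjusted p = 0.00229). C6, a complement component, stood at 11.3, 25.7 and 59.3 TPM in spleen and 0.635, 0.271 and 0.258 TPM in BMPC (-4.30 ± 0.92, adjusted p = 0.0119), and Csf1r, the growth factor receptor of macrophages, at 25.6, 75.8 and 111 TPM in spleen and 4.58, 3.23 and 7.84 TPM in BMPC (-3.37 ± 0.79, adjusted p = 0.0194, with the call kept only without BMPC 3 or spleen 1). In each of the 3, spleen library 3 was the highest and library 1 the lowest of its group, as in the summed markers of monocytes, macrophages and dendritic cells (909, 2934 and 4144 TPM, against 1407, 897 and 1326 TPM in BMPC). Of the 22 tested markers of that list, 3 were lower on the first scale (Csf1r, Cd300e and Cd14), 1 of them on both, and none was at 0 throughout. The list's count was between 0 without BMPC 1, BMPC 2, spleen 2 or spleen 3 and 4 without spleen 1. The part of these cells in the 3 genes was not tested. Treml4, a receptor of myeloid cells, was called on the first scale only (-2.92 ± 0.86, adjusted p = 0.0450, and 0.116 on the second), a call kept only without BMPC 3 or spleen 1.

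Rgs1, a brake on chemokine receptor signalling, stood at 16.8, 31.1 and 31.2 TPM in spleen and 2.67, 2.98 and 1.08 TPM in BMPC (-3.08 ± 0.40, adjusted p = 5.26e-04). Its groups did not overlap, which the ranking required. Ms4a4c, of the CD20-related family, fell by 3.09, a call lost without spleen 2. Esam, an endothelial adhesion molecule, stood at 21.3, 19.5 and 17.6 TPM in spleen and 0.0660, 0.719 and 0 TPM in BMPC (-4.06 ± 1.03, adjusted p = 0.0257), and no fit without 1 library called it (adjusted p 0.0521 to 0.0807).

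Receptors for movement and tissue retention differed in both directions. S1pr1, the sphingosine phosphate receptor that draws lymphocytes out of tissues into blood, stood at 17.3, 15.3 and 6.64 TPM in spleen and 1.07, 0.820 and 0.619 TPM in BMPC (-2.85 ± 0.47, adjusted p = 0.00264). Cxcr3, a receptor for chemokines of inflamed tissue, stood at 79.1, 80.2 and 69.5 TPM in spleen and 27.1, 25.8 and 18.1 TPM in BMPC (-1.67 ± 0.17, adjusted p = 1.12e-04). For Cxcr3 the spleen B220-2NBDG+ libraries were already low, at 23.2, 21.9 and 19.8 TPM: the 2 spleen groups differed by -1.77 (adjusted p = 0.00116), and BMPC differed from spleen B220-2NBDG+ by 0.11 (adjusted p = 0.795). Ccr9, the receptor for a chemokine of the gut, rose (4.63, 4.04 and 4.14 TPM in spleen, 20.3, 7.06 and 14.3 TPM in BMPC, 1.39 ± 0.27, adjusted p = 0.00766) and was chosen after its values were seen. Cxcr4, the receptor for the bone marrow chemokine CXCL12, stood at 28.4, 20.8 and 24.7 TPM in spleen and 4.25, 13.2 and 14.8 TPM in BMPC, lower on the first scale (-1.27 ± 0.34, adjusted p = 0.0321, kept only without BMPC 2 or BMPC 3) and not called on the second (adjusted p = 0.106). Of 16 tested members of this list, 7 were lower and 1 higher on the first scale, and 3 and 1 on both, with a median of -0.95. The number of lower members was between 2 without spleen 2 and 7 without spleen 3. Klf2, which drives S1pr1, was not called (-0.64 ± 0.26, adjusted p = 0.112).

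Of 33 tested integrins and adhesion molecules, 1 (Itga2) passed the filter on low values only through BMPC libraries. Of the other 32, 3 were called higher on both scales. Over the 33, 10 were lower on the first scale, 4 of them on both (Esam, Cd9, Cd47 and Slamf6), and the median was -0.53. Cd63, a tetraspanin of secretory granules and lysosomes, stood at 8.80, 22.5 and 37.02 TPM in spleen and 93.1, 71.1 and 118 TPM in BMPC (2.17 ± 0.44, adjusted p = 0.00930). Itga2, the collagen-binding integrin chain, stood at 0.375, 0.121 and 0.203 TPM in spleen and 1.39, 2.07 and 3.75 TPM in BMPC, and it passed the filter on low values only through BMPC libraries, so no test is given. Jaml, a junctional adhesion protein of leukocytes, and Epcam, an epithelial adhesion molecule, rose by 1.44 and 1.06. The call of Jaml was lost without BMPC 2, BMPC 3 or spleen 2 and that of Epcam kept only without BMPC 1 or spleen 3. Cd47, the signal that protects cells from phagocytes, fell (-1.07), and so did Slamf6, a receptor of the SLAM family (-1.05). Epcam, Cd47 and Slamf6 were chosen after their values were seen. Itga4, the integrin chain that holds plasma cells to stroma, was not called (-0.31 ± 0.21, adjusted p = 0.313), and its sign changed on the second scale (0.05).

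Several genes of Ly6 proteins, small lipid-anchored proteins of the cell surface, rose. Of 17 tested members of the list of Ly6 and other lipid-anchored proteins, 7 rose, 1 (Cd48) was lower on the first scale only, and the median was 0.28. Ly6c2, carried by plasma cells of the bone marrow and by monocytes and neutrophils, stood at 1426, 1063 and 1769 TPM in spleen and 4013, 7247 and 6112 TPM in BMPC (2.02 ± 0.35, adjusted p = 0.00359). It also exceeded spleen B220-2NBDG+ (1.62, adjusted p = 0.0307). Cd59a, an inhibitor of complement lysis, stood at 14.7, 10.6 and 16.1 TPM in spleen and 26.8, 79.2 and 46.3 TPM in BMPC (1.69 ± 0.33, adjusted p = 0.00703). Ly6c1, Ly6d, Ly6e and Ly6i rose by 1.81, 1.14, 0.52 and 1.30. The call of Ly6c1 was kept only without spleen 1, that of Ly6d lost without BMPC 2 or spleen 2, that of Ly6e lost without BMPC 1 or spleen 1 and that of Ly6i lost without BMPC 1, spleen 1 or spleen 2. Ly6d, Ly6e and Ly6i were chosen after their values were seen. Ly6 genes lie in a cluster of close copies, and reads may be shared between Ly6c1 and Ly6c2. Ly6g is the remaining member, described with the neutrophil genes, whose summed level was higher in every BMPC library. With 1 library left out, the number of higher members was between 4 without BMPC 1 or spleen 2 and 6 without BMPC 3 or spleen 3.

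Receptors for niche and cytokine signals were lower for 4 of 22 tested members on both scales, and Tnfrsf17 alone rose (median -0.33). Cd38, an ectoenzyme that consumes NAD, stood at 52.6, 59.2 and 67.3 TPM in spleen and 11.4, 11.7 and 14.2 TPM in BMPC, with means 4.79 times apart (-2.17 ± 0.17, adjusted p = 1.21e-05). Spleen B220-2NBDG+ libraries lay between, at 35.7, 36.05 and 35.1 TPM, and BMPC was lower than they were (-1.45, adjusted p = 4.29e-04). Il21r, a receptor chain for a helper T cell cytokine, stood at 11.3, 14.5 and 7.17 TPM in spleen and 1.95, 0.873 and 1.52 TPM in BMPC. Il4ra, the chain shared by IL-4 and IL-13 receptors, stood at 19.4, 20.4 and 14.4 TPM in spleen and 3.46, 2.11 and 4.29 TPM in BMPC. Both fell without overlap (-2.27 and -2.17), and Il10ra, a chain of the IL-10 receptor, fell too (-1.61).

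In the BCL2 family and survival list, 4 of 24 tested genes were lower on the first scale (9.33% of all genes). On both scales 2 were lower (1.73%), and the list's median was -0.24. Bcl2l11, which encodes the death inducer BIM, stood at 24.5, 29.2 and 41.7 TPM in spleen and 4.69, 10.3 and 16.2 TPM in BMPC (-1.63 ± 0.34, adjusted p = 0.0105). Bcl2a1d, a pro-survival member, stood at 11.9, 13.4 and 18.2 TPM in spleen and 2.59, 2.29 and 6.30 TPM in BMPC (-1.79 ± 0.29, adjusted p = 0.00264). Both fell without overlap, but Bcl2a1d is 1 of several near copies among which reads may be divided. Bcl2a1b, another of these copies, was lower on the first scale only (-1.04).

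Genes of mitosis were lower in BMPC than in spleen B220+2NBDG+. Of 35 tested genes, 19 were called lower on the first scale (9.33% of all genes) and 6 on both (1.73%). The first-scale count was between 9 without spleen 2 and 16 without BMPC 2. None was higher, and the median was -0.97 (-0.64 on the median-of-ratios scale). Cenpa, the histone of centromeres, stood at 21.6, 38.2 and 23.2 TPM in spleen and 5.54, 11.8 and 5.63 TPM in BMPC (-1.76 ± 0.33, adjusted p = 0.00573). Plk1, a mitotic kinase, stood at 12.2, 14.2 and 6.02 TPM in spleen and 2.56, 3.94 and 3.12 TPM in BMPC (-1.43 ± 0.28, adjusted p = 0.00746). Aurka, Aurkb, Tpx2 and Cdc25c, all regulators of mitotic entry or the spindle and chosen after their values were seen, fell (-1.42, -1.34, -1.20 and -1.10). Ube2c and Ccnb1 were lower on the first scale (-1.63 and -1.50) and missed the threshold on the second (adjusted p = 0.0780 and 0.0634). Mki67, the proliferation antigen, was called on the first scale only (-1.13 ± 0.30, adjusted p = 0.0326), a call kept only without BMPC 3.

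The spleen B220-2NBDG+ libraries did not lie between the other groups for Ccnb1. Ccnb1, cyclin B1, stood at 31.97, 53.2 and 46.4 TPM in spleen B220+2NBDG+, 5.47, 8.01 and 12.1 TPM in spleen B220-2NBDG+ and 16.2, 15.5 and 12.2 TPM in BMPC. BMPC was above spleen B220-2NBDG+ in every library, but that difference was not called (0.77, adjusted p = 0.196), while the 2 spleen groups differed by -2.26 (adjusted p = 0.00210). Over the list, 30 of 35 members were called lower in spleen B220-2NBDG+ than in spleen B220+2NBDG+ (median -1.82), and 5 were called higher in BMPC than in spleen B220-2NBDG+ (median 0.69). The backgrounds of those counts were 1.24% and 1.03% of tested genes.

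In the list of S phase and DNA replication, 4 of 30 tested genes were lower on the first scale (9.33% of all genes). That count was between 1 without BMPC 1 or spleen 2 and 4 without BMPC 3. On both scales 1 gene, Rrm2, was lower (1.73% of all genes), and the list's median was -0.59. Rrm2, a subunit of ribonucleotide reductase, stood at 139, 250.1 and 181 TPM in spleen B220+2NBDG+, 29.6, 33.5 and 48.5 TPM in spleen B220-2NBDG+ and 58.01, 73.7 and 56.6 TPM in BMPC (-1.55 ± 0.29, adjusted p = 0.00623). Its levels in BMPC were again above those of spleen B220-2NBDG+ without a call (0.76, adjusted p = 0.211). Mcm2, part of the replicative helicase, stood at 34.003, 30.4 and 24.9 TPM in spleen and 3.96, 3.94 and 17.5 TPM in BMPC, called on the first scale with the call kept only without BMPC 3 or spleen 3 (adjusted p 0.00330 to 0.101).

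**Figure D3:**
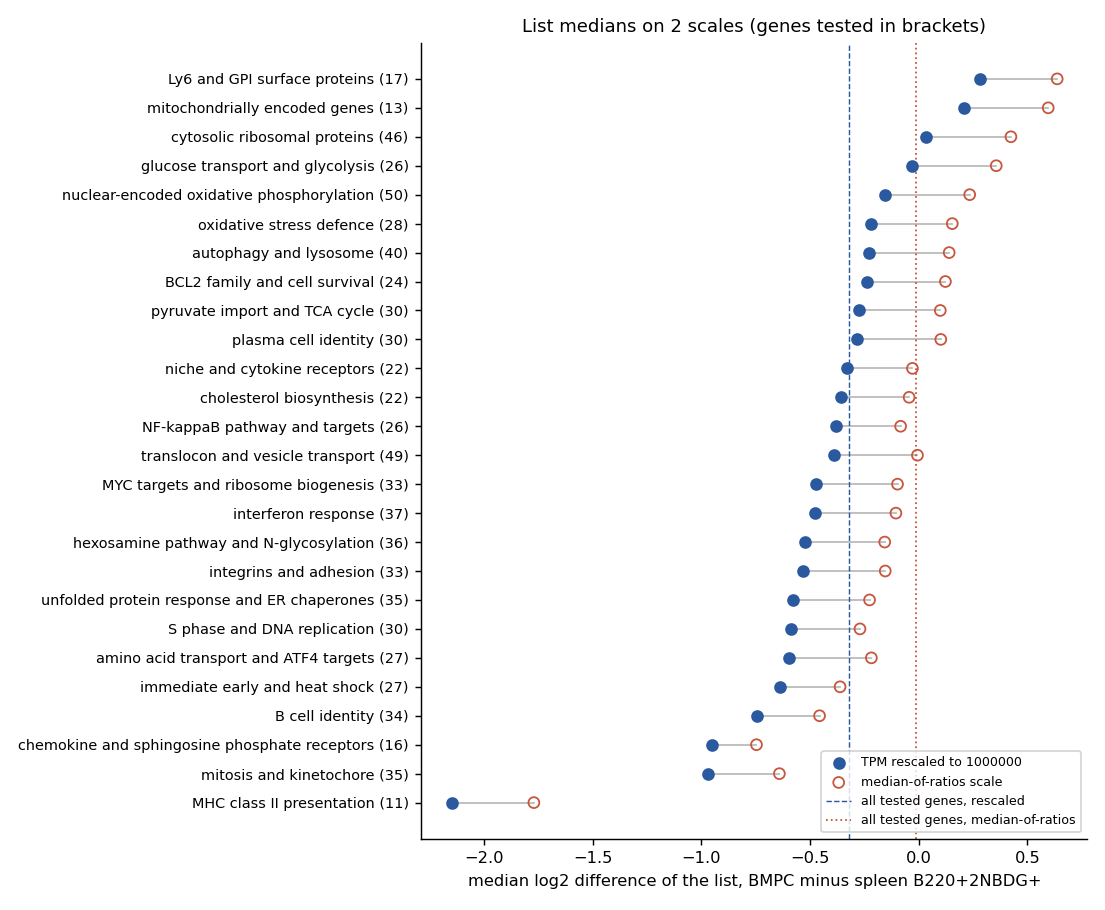
Median log2 difference of each of the 26 lists on gene function, with filled points for TPM rescaled to 1000000 and open points for the median-of-ratios scale. Dashed and dotted lines mark the median of all tested genes on each scale (-0.32 and -0.01), and MHC class II, mitosis, chemokine receptor and B cell lists lie furthest to the left of them.

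The secretory machinery carries the antibody through the ER and Golgi. Of 35 tested genes of the unfolded protein response and ER chaperones, 11 were lower on the first scale (between 6 without BMPC 1 and 16 without BMPC 3) and 2 on both, with a median of -0.58 (-0.23 on the median-of-ratios scale). Hsp90b1, the ER chaperone GRP94, stood at 3016, 2166 and 2769 TPM in spleen and 1213, 1332 and 1495 TPM in BMPC (-0.97 ± 0.12, adjusted p = 3.76e-04). Manf, a factor released under ER stress, stood at 1692, 1609 and 1675 TPM in spleen and 716, 843 and 807 TPM in BMPC (-1.07 ± 0.14, adjusted p = 5.26e-04). Both fell without overlap. Hspa5, the chaperone BiP, and Calr, calreticulin, chosen after their values were seen, were lower on the first scale (-0.87 and -0.78) but not on the second (adjusted p = 0.0987 and 0.0524).

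Of 49 translocon and vesicle transport genes, 13 were lower on the first scale (9.33% of all genes). That count was between 5 without BMPC 1, BMPC 2, spleen 1 or spleen 3 and 20 without BMPC 3. On both scales 2 were lower (1.73%), and the median of -0.39 was close to that of all genes. Those 2 were Sec24d, a cargo adaptor of COPII vesicles (151, 134 and 150.1 TPM in spleen, 40.01, 69.1 and 64.9 TPM in BMPC, -1.35 ± 0.24), and Kdelr2, the receptor that returns ER proteins (-1.26 ± 0.23). In N-glycosylation, 9 of 36 were lower on the first scale and 2 on both. B4galt1, the galactosyltransferase that adds galactose to antibody glycans, stood at 23.8, 24.8 and 19.6 TPM in spleen and 3.54, 6.30 and 9.23 TPM in BMPC (-1.76 ± 0.24, adjusted p = 6.95e-04). Ostc, a subunit of the oligosaccharyltransferase, fell by 1.01. The median of this list was -0.52, and its lower members numbered between 3 without BMPC 1 and 9 without BMPC 3.

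Both groups took up the glucose analogue, and the glucose transporters were not called. Slc2a1 (GLUT1) stood at 18.4, 14.3 and 10.4 TPM in spleen and 11.7, 17.9 and 13.9 TPM in BMPC (0.03 ± 0.23, adjusted p = 0.939), and Slc2a3 (GLUT3) at 11.9, 8.08 and 7.02 TPM in spleen and 12.4, 8.996 and 8.88 TPM in BMPC (0.16 ± 0.49, adjusted p = 0.828). Of 26 tested genes of glucose transport and glycolysis, 1 rose and 1 fell (median -0.03). Pfkp, the platelet form of phosphofructokinase, stood at 179.6, 146 and 207 TPM in spleen and 49.6, 69.5 and 109.9 TPM in BMPC (-1.27 ± 0.24, adjusted p = 0.00573), and it was lower than in spleen B220-2NBDG+ as well (-1.21, adjusted p = 0.0188). Ldhb, a lactate dehydrogenase subunit, rose from 1.90, 0 and 1.12 to 2.96, 6.67 and 5.55 TPM (1.67 ± 0.43), a call lost without BMPC 2, BMPC 3 or spleen 2. On the median-of-ratios scale, 5 members were higher, among them Slc16a5, a monocarboxylate transporter (34.5, 21.4 and 27.3 TPM in spleen, 33.6, 44.7 and 45.1 TPM in BMPC, 0.94, adjusted p = 0.00583; on the first scale 0.57, adjusted p = 0.0749).

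Few genes of respiration were called. No mitochondrially encoded gene of 13 was called by limma on the first scale (median 0.21; 2 had an unadjusted p under 0.05) and 2 were higher on the second. The most abundant, mt-Atp8, stood at 61288, 64990.3 and 61731 TPM in spleen and 73503, 81729 and 62921 TPM in BMPC (0.21 ± 0.08, adjusted p = 0.111, and 0.0241 on the second scale). Of 50 nuclear-encoded genes of oxidative phosphorylation, 1 rose and 1, Uqcrc1, was lower on the first scale only, a call kept only without spleen 3 (median -0.15). The riser was Ndufa1, of complex I (1369, 1477 and 1327 TPM in spleen, 1649, 2159 and 1718 TPM in BMPC, 0.40 ± 0.11), with the call kept only without BMPC 1 or BMPC 3. In the TCA cycle list, 2 of 30 (Idh1 and Mdh1) were lower on the first scale and none on the second, and neither call held in any fit without 1 library (adjusted p 0.0511 to 0.136 for Idh1 and 0.0525 to 0.146 for Mdh1).

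Amino acid transporters rose and fell. Slc43a1, an exporter and importer of branched-chain amino acids, stood at 33.5, 28.4 and 28.6 TPM in spleen and 5.52, 5.35 and 7.76 TPM in BMPC (-2.12 ± 0.18, adjusted p = 3.15e-05). Slc7a4, an orphan of the cationic amino acid transporter family, stood at 9.07, 5.87 and 5.34 TPM in spleen B220+2NBDG+, 17.7, 19.3 and 14.5 TPM in spleen B220-2NBDG+ and 12.9, 20.9 and 25.1 TPM in BMPC (1.39 ± 0.26, adjusted p = 0.00598). The 2 spleen groups already differed for Slc7a4 (1.25, adjusted p = 0.0310). These were the 2 of 27 tested members called on both scales. On the first scale 7 were lower (9.33% of all genes), between 1 without BMPC 2 or spleen 1 and 10 without BMPC 3. In cholesterol synthesis, 4 of 22 were lower on the first scale. That count was between 1 without BMPC 1, BMPC 2, spleen 1 or spleen 2 and 4 without BMPC 3. Cyp51 was lower on both, beside 1.73% of all genes (11.03, 12.4 and 11.1 TPM in spleen, 4.62, 5.75 and 5.45 TPM in BMPC, -0.999 ± 0.14).

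Metallothioneins, which bind zinc and copper, rose most in the list of oxidative stress defence. Mt1 stood at 251, 204 and 282 TPM in spleen B220+2NBDG+, 573, 409.5 and 687 TPM in spleen B220-2NBDG+ and 2038, 2179 and 872 TPM in BMPC (2.68 ± 0.37, adjusted p = 6.73e-04). Mt2 stood at 80.5, 59.6 and 78.9 TPM, 225, 163 and 198 TPM and 485, 708 and 272 TPM in the same order of groups (2.63 ± 0.37, adjusted p = 8.19e-04). The 3 groups followed each other without overlap for both genes, though neither step on its own was called. Prdx5, a peroxiredoxin chosen after its values were seen, rose by 0.49 (adjusted p = 0.0120). Of 28 tested members these 3 rose, as they did in each fit without 1 library, and 3 were lower on the first scale only (between 1 without spleen 2 or spleen 3 and 2 without BMPC 1, BMPC 2, BMPC 3 or spleen 1).

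In the lists of signalling and growth, counts stand beside 9.33% of all genes lower on the first scale and 1.73% on both. Of 37 tested interferon response genes, 8 were lower on the first scale (between 2 without BMPC 1 and 7 without BMPC 3). Lower on both were 2, Tap1 and Gbp2, an interferon-induced GTPase whose call was lost without BMPC 1 or spleen 2. Of 26 NF-kappaB genes, 5 were lower on the first scale and 3 on both. The first-scale count was between 3 without BMPC 1, BMPC 2 or spleen 2 and 7 without BMPC 3. On the second scale 2 NF-kappaB genes were higher. Cd83, a surface marker of activated B cells, stood at 49.4, 60.1 and 29.2 TPM in spleen and 7.66, 10.6 and 9.79 TPM in BMPC (-2.14 ± 0.40, adjusted p = 0.00608). Of 27 immediate early and heat shock genes, 6 were lower on the first scale (between 3 without BMPC 1 or spleen 2 and 7 without spleen 3) and 3 on both. Egr2 and Egr1, early response transcription factors, fell (-2.52 and -1.31), and so did Dnajb1, a heat shock cochaperone (-1.03). Of 33 MYC and ribosome biogenesis genes, 6 were lower on the first scale (between 0 without spleen 2 and 6 without BMPC 3) and none on the second. Myc itself stood at 18.3, 23.9 and 17.98 TPM in spleen and 6.13, 9.95 and 11.8 TPM in BMPC (-1.06 ± 0.23, adjusted p = 0.0126, lost without spleen 2, and 0.0508 on the second scale). No ribosomal protein gene of 46 was called by limma on the first scale (median 0.04; 4 had an unadjusted p under 0.05), and 4 were higher on the second. In autophagy and lysosome, 1 of 40 (Cd63) rose. A further 5 were lower on the first scale only (between 2 without BMPC 2 and 5 without BMPC 3). They were led by the lysosomal protease gene Ctsh (-1.11 ± 0.19).

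Immunoglobulin genes were compared before rescaling, as shares of the deposited TPM. They took 95.3%, 95.2% and 95.6% of TPM in spleen B220+2NBDG+ (95.4% ± 0.226 SD, n = 3) and 94.9%, 95.3% and 96.3% in BMPC (95.5% ± 0.737 SD, n = 3). The groups overlapped (exact permutation test, two-sided, p = 0.8, where 0.1 is the smallest p that 3 against 3 allows). Without BMPC 3 the difference of 0.133 percentage points became -0.273.

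The heavy chain classes differed most in IgA. Igha took 11.6%, 11.4% and 5.11% of heavy chain constant TPM in spleen B220+2NBDG+, 19.4%, 17.96% and 10.9% in spleen B220-2NBDG+ and 62.8%, 37.8% and 31.4% in BMPC. BMPC was thus 34.6 percentage points above spleen B220+2NBDG+, with every library above every spleen library (exact permutation test, two-sided, p = 0.1, the smallest the design allows, adjusted over 8 isotypes p = 0.267). Ighg2b took 24.1%, 18.5% and 12.9% in spleen B220+2NBDG+ and 8.13%, 3.27% and 5.47% in BMPC, again without overlap (exact p = 0.1, adjusted p = 0.267). The 4 Ighg genes together took 35.4% ± 5.03 (SD, n = 3) in spleen and 13.9% ± 5.47 (SD, n = 3) in BMPC. Ighm took 47.9%, 53.2% and 64.5% in spleen and 19.0%, 54.5% and 52.8% in BMPC (exact p = 0.5). The difference of -13.1 percentage points in Ighm rested on BMPC 1, without which it was -1.54. Ighd was a small share in both groups (0.0311% ± 0.0112 in spleen and 0.00577% ± 0.00692 in BMPC, SD, n = 3) and did not overlap (exact p = 0.1, adjusted p = 0.267). The 4 remaining isotypes, Ighg1, Ighg2c, Ighg3 and Ighe, had exact p of 0.2 to 0.3. Transcripts that carry the membrane exons made up 0.526% ± 0.0536 of heavy chain constant TPM in spleen and 0.448% ± 0.213 in BMPC (SD, n = 3).

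**Figure D4:**
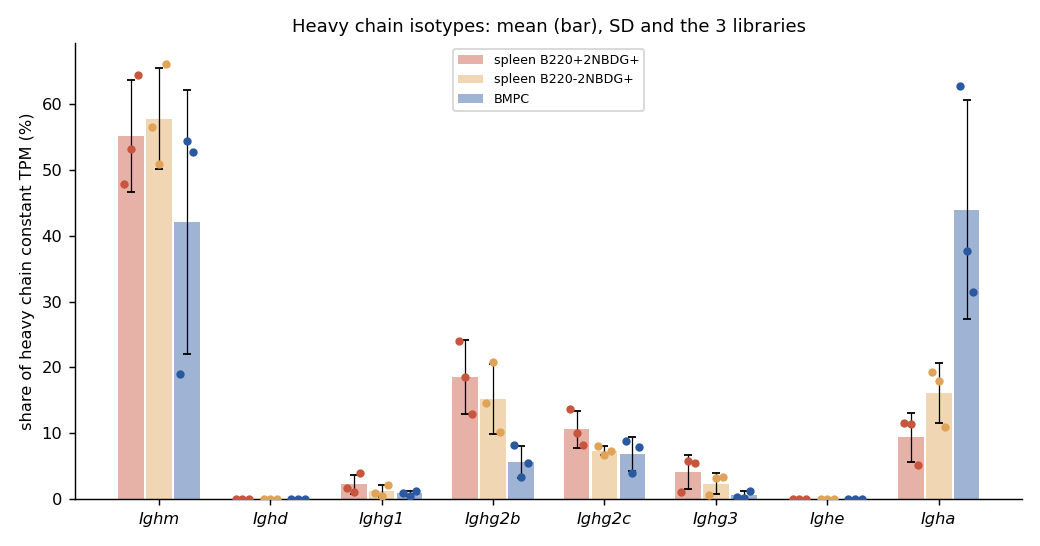
Share of each heavy chain constant gene in heavy chain constant TPM (y axis, percent), with bars for the mean, whiskers for the SD and points for the 3 libraries of each group. Igha is higher and Ighg2b lower in all BMPC libraries than in all spleen B220+2NBDG+ libraries, and 1 BMPC library stands apart in Ighm and Igha.

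Markers of several further cell types were present in both groups. Of 14 tested T cell markers, 2 rose (Cd4, with the call kept only without BMPC 2 or spleen 3, and Il7r, with the call kept only without BMPC 3 or spleen 2) and 2 were lower on the first scale, of which Cd2 (139.6, 94.2 and 83.6 TPM in spleen, 32.7, 25.1 and 13.2 TPM in BMPC, -2.17 ± 0.30) on both. Summed T cell markers were 281, 213 and 168 TPM in spleen and 89.0, 99.9 and 80.6 TPM in BMPC. None of 6 tested NK cell markers and none of 14 erythroid markers was called by limma, with 1 and 1 at an unadjusted p under 0.05. Nkg7, a granule protein of NK cells, stood at 9.61, 7.27 and 3.14 TPM in spleen and 15.5, 25.1 and 48.7 TPM in BMPC (log2 difference 1.96 ± 0.67, adjusted p = 0.0718). Nkg7 had the highest difference of the 6 tested NK markers, of which 4 were above 0 and 2 below. Summed NK markers were 29.3 to 41.3 TPM in spleen and 70.9 to 82.1 TPM in BMPC. Ncr1 and Klrb1c, NK markers left out by the filter, reached at most 0.485 TPM in spleen and 1.14 TPM in BMPC. Prss34, a basophil protease, stood at 0, 0.111 and 0 TPM in spleen and 26.03, 3.46 and 1.25 TPM in BMPC, passing the filter only through BMPC libraries. Of 3 tested markers of megakaryocytes and platelets, 1 was higher and 1 lower on the first scale, with a median of -1.24. Pf4, a platelet chemokine, rose from 0.784, 2.53 and 3.25 to 4.72, 9.58 and 71.6 TPM, a call kept only without BMPC 1. Ppbp of the same list was lower on the first scale only (-1.24 ± 0.34, adjusted p = 0.0347). No fit without 1 library called Ppbp (adjusted p 0.0584 to 0.0876). Summed markers of stromal and endothelial cells were 108 to 129 TPM in spleen and 36.1 to 64.7 TPM in BMPC, with Bglap and Col3a1 at 0 throughout. Alpl, a phosphatase that made up most of that sum in spleen, was lower on the first scale (83.2, 73.4 and 101 TPM in spleen, 10.1, 37.99 and 37.3 TPM in BMPC, -1.76 ± 0.41), a call lost without spleen 1 or spleen 3. Of the 5 tested members of that list, 4 had a log2 difference below 0 and 1 above. Cxcl12, a member left out by the filter, stood at 0.0882, 0.0658 and 0.101 TPM in spleen and 4.29, 1.45 and 0.959 TPM in BMPC. The part of these cells in the differences described for other lists was not tested.

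**Figure D5:**
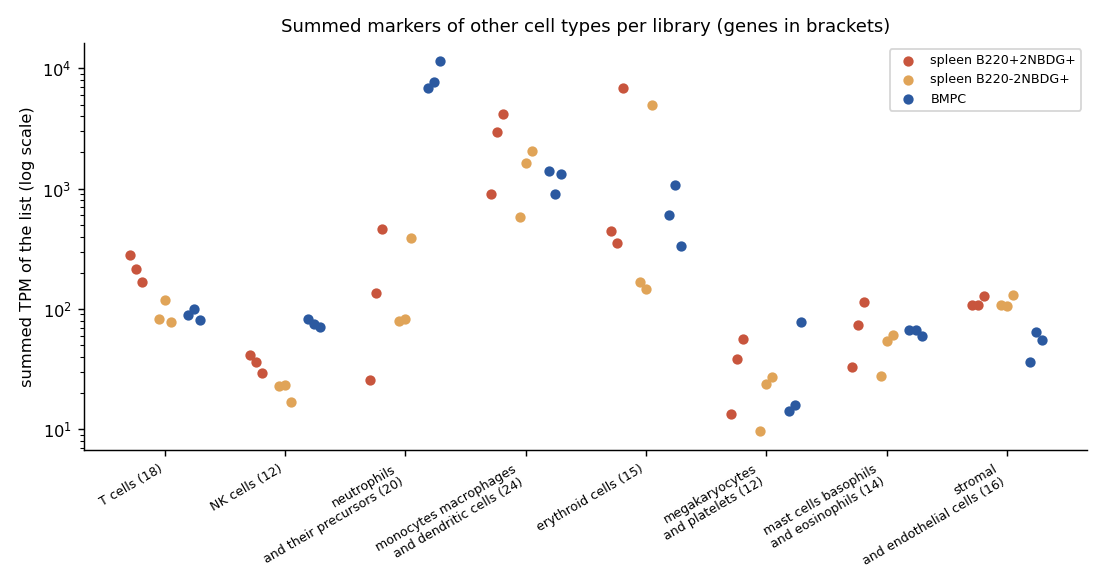
Summed TPM of each marker list (log axis) in each library of spleen B220+2NBDG+, spleen B220-2NBDG+ and BMPC. The neutrophil list is the one in which BMPC stands far above both spleen groups, and erythroid markers are high in 1 library of each spleen group.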

How the data were processed

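The cDNA of about 30000 sorted cells per subset was made with Clontech SMART-seq and Nextera kits from NucleoSpin XS RNA, per the labels' protocols. The values deposited by the authors are TPM per transcript (length-corrected shares of a library), made with Salmon 0.9.1 on GRCm38.p6, per the submitters' processing notes. A TPM keeps no depth, so estimated reads were used for depth alone. They were found by seeking a scale at which TPM times effective length gave whole numbers. The effective lengths were shared by all libraries. In the 6 libraries 72.3% to 75.0% of low products came out whole, so the reads are approximate. TPM were summed over 63553 transcripts to 22339 genes, and 99.7% of the transcripts were found in the GENCODE M21 annotation. The 262 immunoglobulin locus genes were set aside, the rest rescaled to 1000000, and genes that did not reach 1 TPM in at least 3 of the 15 libraries left out. Differences were tested on log2(TPM + 1), which understates changes of low genes, with limma 3.58.1 in R 4.3.3 (intensity trend, all 15 libraries, adjusted p under 0.05), after a test on simulated data. Isotype shares were compared with exact permutation tests (two-sided).

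The comparison and the gene lists were taken up with earlier results of these data known, while libraries were assigned to groups by their labels. Named genes were the 12 highest and 12 lowest differences among called genes with a group mean of 10 TPM and no overlap, up to 4 called members of each list, and fixed genes. Others are said to be chosen after their values were seen. Promoter letters came from RefSeq (GRCm38.p6). Same-numbered libraries were not treated as pairs, also not between the 2 spleen groups, where a link was not tested. The alternatives covered scaling, pseudocount, filter, the libraries fitted, the block, single transcripts and each library left out. Results for 2 of the named genes are not reported here.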

Additional observations from a re-analysis of the deposited data

How the results depend on the processing

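The number of genes tested differed between settings and is given with the counts. The number called in BMPC against spleen B220+2NBDG+, 1264 of 11246, was 642 of 4736 with TPM as deposited (62 higher, 580 lower). It was 571 of 11204 with median-of-ratios scaling and 658 of 10209 in a fit on the 6 libraries alone. It was 489 when 24732 transcripts were tested singly and genes with a called transcript counted. It was 544 of 11193 (without BMPC 1) to 1232 of 11164 (without BMPC 3) with 1 library left out. The other scalings, pseudocounts and filters gave 900 of 20795 (no filter) to 1281 of 11246 (pseudocount 0.1). With the replicate number as a block the number called was 1454 of 11246 in 15 libraries and 389 of 10209 in the 6 libraries. Deviations of same-numbered BMPC and spleen B220+2NBDG+ libraries from their group means correlated at -0.11, -0.07 and 0.05, so the numbers were not taken as pairs. Within 3 pairs the smallest exact permutation p is 0.25 (0.75 for the immunoglobulin share, two-sided). For BMPC against spleen B220-2NBDG+, 216 calls became 30 with TPM as deposited (4736 genes tested), 335 with the block and 60 to 242 with 1 library left out. Between the spleen groups, 151 became 671, 228 and 52 to 164. Summed erythroid markers were 443, 352 and 6804 TPM in spleen B220+2NBDG+ libraries 1, 2 and 3. In the same-numbered spleen B220-2NBDG+ libraries they were 167, 147 and 4934 TPM. Whether same-numbered spleen libraries were linked was not tested, and the step between the spleen groups is given above without pairs. The difference in the immunoglobulin share, 0.133 percentage points, ranged from -0.273 to 0.445 with 1 library left out, and that of Igha from 25.2 to 40.9. Counted over constant genes only, the difference in the immunoglobulin share was 1.78. Over 185 named genes and all alternatives, 2380 values kept their direction and side of the threshold, 487 lost the call, 8 gained it and 14 changed sign. The cause of these changes was not tested. On the median-of-ratios scale Mdh1 became 0.11, Irf4 0.0782, Xbp1 0.21, Itga4 0.0490 and B2m 0.0617. Rps19 became -0.0369 with TPM as deposited and ranged from -0.0659 to 0.142 with 1 library left out. Over the same 6 fits Irf4 ranged from -0.532 (without BMPC 3) to 0.0747 (without BMPC 1), and Slc2a1 was -0.12 without BMPC 2 and -0.17 without spleen 3. The erythroid genes Hbb-bs and Hba-a2 ranged from -1.51 and -1.47 (without spleen 2) to 0.81 and 0.62 (without spleen 3).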
